A study of Mus musculus with 69 samples.

Results

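The cells described here are 28 single cells of the embryonic mouse cortex that held Eomes RNA, split by whether they also held Sox2 RNA. They come from a series of 69 single cells of CD1 mouse embryos at embryonic day 14, of which 66 were picked from the ventricular and subventricular zones (VZ/SVZ) and 3 from the cortical plate of the dorso-lateral cerebral wall. No mutation, transgene or treatment is named for any group. Each cell was taken up by hand in a capillary after trypsin, its cDNA was amplified, and it was hybridised to 1 whole-genome array, whose deposited values are MAS5 signals on a linear scale. The VZ/SVZ cells with an Eomes signal above 50 were taken, and a Sox2 signal above 50 divided them into 21 cells with Eomes and Sox2 and 7 cells with Eomes without Sox2. The 38 other VZ/SVZ cells were 28 with Sox2 without Eomes and 10 with neither, and none of the 3 cortical plate cells passed 50 for Eomes or Sox2.

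In the developing cortex, apical progenitors (radial glia) divide at the ventricle, and they give rise to intermediate progenitors, which settle in the subventricular zone and divide there to make neurons. Sox2, an HMG-box transcription factor, is a classical factor of the apical progenitor state, and Eomes (also called Tbr2), a T-box transcription factor, marks intermediate progenitors. A cell on its way from the first state to the second can hold both, and one further on can have lost Sox2.

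The threshold of 50 lay in a gap for Eomes. The highest VZ/SVZ cells under it read 26.4 and 40.8, and the lowest above it read 245 and 484. For Sox2 the gap among Eomes cells was narrower, with 1 cell at 47.8 just under the threshold and 1 at 96.3 just over it, while the next cells lay at 5.14 and 281. Sox2 reached 3020 in the group that holds it, with a median of 961. These values chose the groups and are given as a description. Eomes itself read 245 to 3498 with a median of 1193 in the cells with Sox2, and 1185 to 4551 with a median of 3181 in the cells without it. Eomes has a second probe set that the rule did not use, and it passed 50 in 15 of the 21 cells and in all 7 cells of the other group, against 1 of 28 and 0 of 10 cells below the Eomes threshold. Sox2 has no second probe set with 1 gene. The long noncoding RNA Sox2ot, whose transcript overlaps Sox2, passed 50 in 5 of 21 cells with Sox2 and in 0 of 7 without it.

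**Figure D1:**
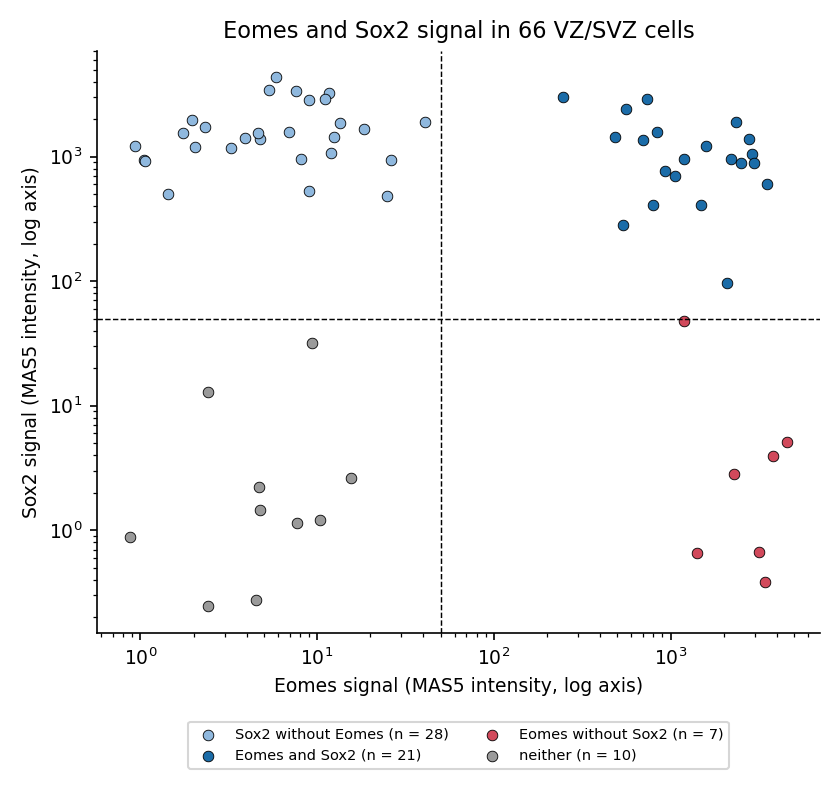
Sox2 signal against Eomes signal in 66 VZ/SVZ cells, both on log axes, with 1 point per cell, coloured by group, and dashed lines at the threshold of 50. The 7 Eomes cells without Sox2 lie at lower right, and 1 of them, at 47.8, touches the Sox2 threshold.

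The labels do not tie the cells to animals, litters or cultures. Each group was therefore treated as 1 sample, and no difference below was tested. Levels are log2 signals with values under 50 set to 50, which is 5.64 on the log2 scale, and ± is the SD over cells. Where many cells lie at this floor, a difference is understated. The bracketed ranges beside a share are 95% intervals (exact, Clopper-Pearson), which cover counting error only. The number of genes above 50 per cell was 3778 to 5503 (median 4768) in Eomes cells with Sox2, 3770 to 4984 (median 4616) in those without, and 4419 to 5715 (median 4950) in cells with Sox2 without Eomes. The added bacterial phe RNA, at 20 copies per cell, passed 50 in all 28 Eomes cells, at 9.19 ± 0.76 with Sox2 and 8.65 ± 1.30 without. The thr RNA, at 5 copies, passed it in 8 of 21 and 3 of 7, so an RNA at a few copies, Sox2 included, can read under 50 in a cell that holds it. Of the markers of other cell types, the 8 microglial, 6 erythroid and 5 oligodendrocyte precursor genes were at or under 50 in all 28 Eomes cells, and so were 7 of 8 endothelial genes. No Eomes cell held more than 3 of the 9 interneuron genes or more than 1 of the Cajal-Retzius genes.

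The Eomes cells with and without Sox2 differed by less than 1 log2 unit in most genes, and the genes with the largest differences higher with Sox2 were mostly genes of mitosis. Of the 6974 genes above 50 in at least 25% of the 28 cells, leaving out Eomes and Sox2, 86 (1.23%) were higher with Sox2 by at least 2 log2 units, which is 4-fold, and 52 (0.746%) were lower by as much. The median difference over the 6974 genes was 0.04. At a limit of 1 log2 unit, 754 genes (10.8%) were higher and 600 (8.6%) lower. For no gene were the groups free of overlap in either direction. These limits only sort genes by size, and with 7 cells in the smaller group a few cells move it: without the cell C-14K, for example, 135 genes were higher and 71 lower.

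**Figure D2:**
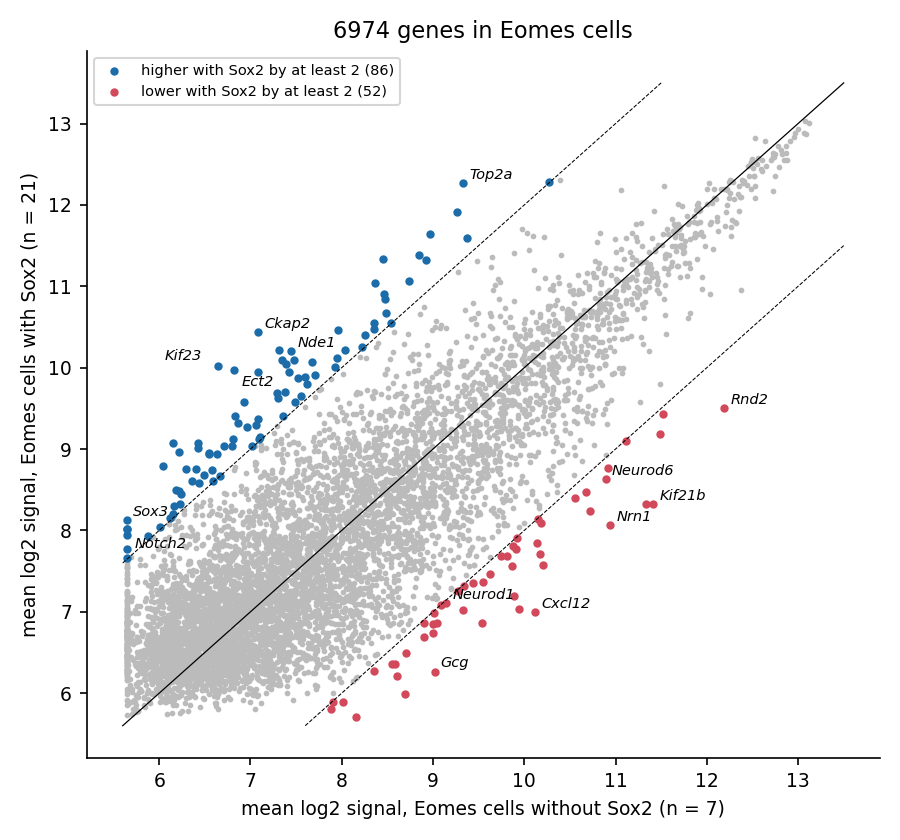
Mean log2 signal of 6974 genes in the 21 Eomes cells with Sox2 (vertical) against the 7 without it (horizontal), with values under 50 set to 50. The solid line marks equal means and the dashed lines a difference of 2 log2 units, beyond which lie 86 genes higher with Sox2, led by Kif23 and Ckap2, and 52 lower, led by Cxcl12 and Kif21b.

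Genes of the G2 and M phases were lower in the Eomes cells without Sox2. Of 24 G2/M genes analysed, all of which passed the filter, 24 were higher with Sox2 by at least 1 log2 unit and 13 by at least 2. Over all genes these shares were 10.8% and 1.23%. The median difference of the G2/M genes was 2.02 against 0.04 over all genes. Kif23, the kinesin of the central spindle, read from at or under 50 to 4527 with Sox2 (median 1445), and passed 50 in 19 of 21 cells (90.5%, 69.6% to 98.8%). Without Sox2 it passed in 2 of 7 (28.6%, 3.67% to 71%), at 508 and 644, and the difference in mean was 3.37. The other 5 cells without Sox2 lay at the floor, and so did 2 cells with Sox2, so the groups overlap at the floor as well as above it.

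Other genes of the spindle and of cell division differed by similar amounts. Ckap2, a protein of spindle microtubules, passed 50 in 20 of 21 and 2 of 7 cells and was higher with Sox2 by 3.35, at 10.44 ± 1.39 against 7.09 ± 2.46. Ect2, an exchange factor needed for cytokinesis, did so in 20 and 2 cells and was higher by 3.16. Top2a, the topoisomerase that untangles chromosomes, read 1057 to 8605 with Sox2 (median 5609), while without it 3 cells read 3587 to 5768, like the cells with Sox2, and 4 read 999, 147, 53.1 and the floor. Its means of 12.27 ± 0.64 and 9.33 ± 3.09 differ by 2.95. Those numbers show a mixed group, in which some cells match the others and some nearly lack the RNA.

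The remaining genes highest with Sox2 by the naming rule were mostly also genes of division. Cep55, of the abscission site between daughter cells, was higher by 2.90, the centrosomal kinase gene Nek2 by 2.87, and Aspm, a spindle pole protein whose loss causes microcephaly, by 2.76. Nde1, a dynein partner at the centrosome and another microcephaly gene, read 310 to 2392 in the 21 cells with Sox2 and from the floor to 542 in the 7 without, a difference of 2.76. Trip13, a mitotic checkpoint ATPase, was higher by 2.92, and Cenpq, of the kinetochore, by 2.75. The exceptions were Tubb4b, a widely expressed tubulin, higher by 2.87, and Nup54, of the nuclear pore, higher by 2.75. Nup54 passed 50 in 19 of 21 and 1 of 7 Eomes cells, but in 23 of 28 and 8 of 10 cells without Eomes.

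The promoters of the mitotic genes are shown because the genes differ as a group and share a known sequence feature, the CCAAT box bound by the factor NF-Y. The 150 bases before the start site were taken from RefSeq (GRCm38.p6), 5′ to 3′ on the gene's strand, for the 4 genes with the largest differences, which all lie on the minus strand. Capitals mark CCAAT on either strand (CCAAT or ATTGG) and the cell cycle homology region, a short element of G2/M promoters (TTTGAA or TTCGAA on either strand). The motifs can share an end letter, but no match overlaps another in these 4 windows.
Kif23, chr9:61946800-61946949: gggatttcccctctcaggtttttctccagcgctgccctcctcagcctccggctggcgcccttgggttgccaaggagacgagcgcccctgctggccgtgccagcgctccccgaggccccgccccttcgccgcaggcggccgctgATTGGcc
Ckap2, chr8:22185820-22185969: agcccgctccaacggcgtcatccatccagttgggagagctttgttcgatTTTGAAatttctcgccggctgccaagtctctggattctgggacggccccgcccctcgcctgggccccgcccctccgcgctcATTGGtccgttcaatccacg
Ect2, chr3:27153879-27154028: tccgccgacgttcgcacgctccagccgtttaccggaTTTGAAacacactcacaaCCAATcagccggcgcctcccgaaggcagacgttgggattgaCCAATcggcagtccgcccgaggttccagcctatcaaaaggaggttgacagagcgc
Top2a, chr11:99024190-99024339: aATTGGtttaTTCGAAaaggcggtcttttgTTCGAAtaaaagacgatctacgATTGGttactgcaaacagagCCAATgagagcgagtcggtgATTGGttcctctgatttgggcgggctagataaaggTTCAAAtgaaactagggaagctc

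All 4 windows hold a CCAAT box, with 4 matches in Top2a, 2 in Ect2 and 1 each in Kif23 and Ckap2. The cell cycle homology letters were found in Top2a, Ect2 and Ckap2 and not in Kif23. Of the 20 G2/M genes with a promoter in the table, 18 (90%) held CCAAT in this window and 6 (30%) the homology region. Over all 27025 genes of the table the shares were 25.3% and 9.89%, and over the 5776 with a promoter among the genes that passed the filter 30.1% and 6.35%. A match of letters is a description and not a binding site.

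The median differences of the S phase and G1 genes, 0.17 and 0.26, were smaller than that of the G2/M genes. Of 20 S phase genes that passed the filter, 14 differed by a value above 0, but only Mcm3, a subunit of the replicative helicase, was higher with Sox2 by at least 1 log2 unit (1.18), and Mcm2, of the same helicase, was lower by as much (−1.26). The S phase median was 1.44 in title letter B, 0.33 in X and −0.46 in C. Mcm2 passed 50 in all 7 cells without Sox2 and 17 of 21 with it. Of the 14 G1 cyclin, CDK and cycle exit genes, 2 were higher by at least 1 log2 unit, the CDK4/6 inhibitor gene Cdkn2c (1.19) and the D-type cyclin gene Ccnd3 (1.15), and none was lower by as much. Of all 6974 genes, 3630 lay above 0, 10.8% were higher by at least 1 log2 unit and 8.6% were lower. The counts at 1 log2 unit in both lists lie near these shares. Ccnd2, the D-type cyclin of progenitors, passed 50 in 19 of 21 and all 7 cells, at 10.57 ± 1.72 and 10.99 ± 1.02. Mki67, the proliferation marker, passed 50 in 21 of 21 and 6 of 7, at 11.62 ± 0.71 and 10.10 ± 2.21.

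**Figure D3:**
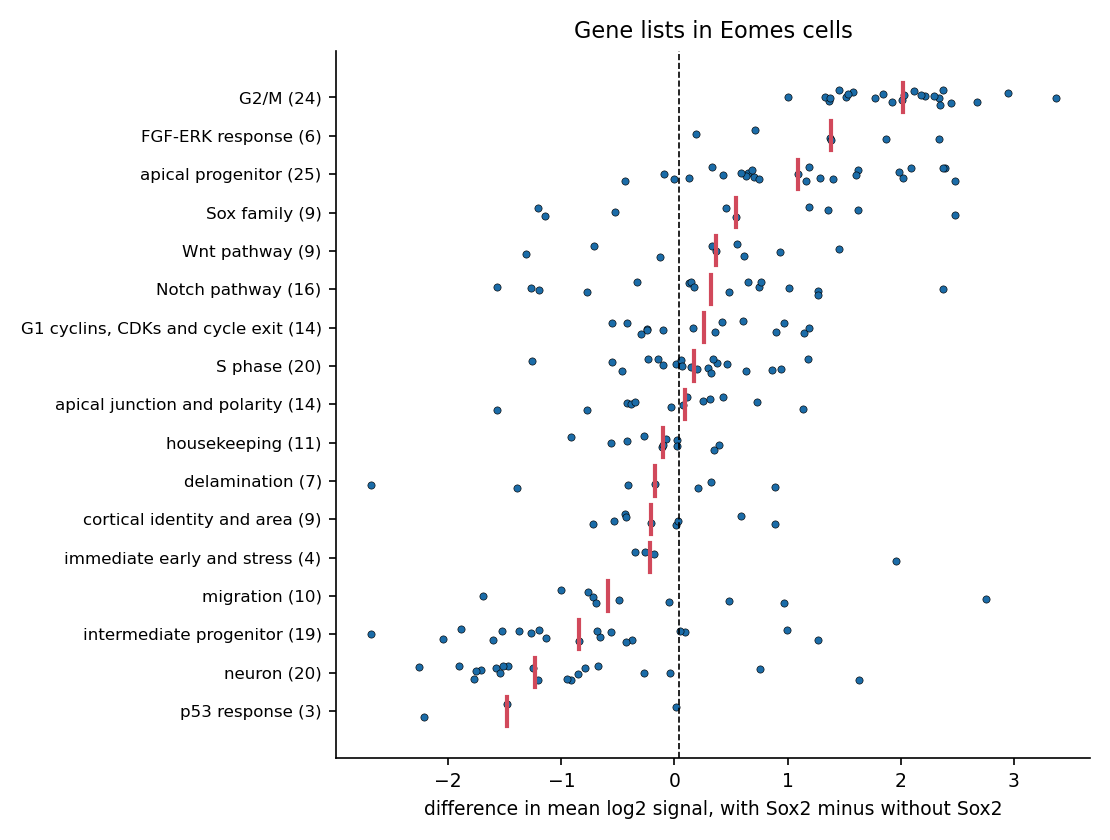
Difference in mean log2 signal, Eomes cells with Sox2 minus without Sox2, for each gene of the lists that passed the filter (blue points, number of genes in brackets), with the list median in red and the median of all 6974 genes as a dashed line at 0.04. All 24 G2/M genes lie at 1 or above, and the neuron and intermediate progenitor lists lie mostly to the left.

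Most genes of the apical state were lower without Sox2, but not Pax6, and not within title letter C, where the list's median difference was −0.53. Of 25 apical progenitor genes that passed the filter, 13 were higher with Sox2 by at least 1 log2 unit and 5 by at least 2, against 10.8% and 1.23% of all genes, none was lower by 1, and the list's median was 1.09. Of the 30 listed genes, 9, Notch2 among them, passed 50 in none of the 7 cells without Sox2. Such genes could pass the filter only through the group with Sox2, which limits what the counts show. Pax6, the paired-box factor of cortical progenitors, read from the floor to 3469 with Sox2 (median 1017) and 172 to 1679 without it (median 970), and it passed 50 in 20 of 21 and 7 of 7 cells. Its means of 9.46 ± 1.84 and 9.55 ± 1.19 differ by less than the spread between cells. The radial glial genes Vim, an intermediate filament, and Fabp7, a lipid-binding protein, also passed 50 in all 7 cells without Sox2, with Fabp7 at 61 to 4432 there against 398 to 7353 with Sox2. Ddah1, an enzyme that degrades methylarginines, was higher by 2.39, and Id4, an inhibitor of bHLH factors, by 2.09, passing 50 in 13 of 21 and 1 of 7 cells. The differences of Id4, Vim and Fabp7 turned within letter C.

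Of 4 relatives of Sox2 that belong to the progenitor state, Sox3 and Sox9 were at the floor in all 7 cells without it, and Sox1 and Sox21 were not. Sox3, like Sox2 a SoxB1 factor, passed 50 in 11 of 21 cells with Sox2 (52.4%, 29.8% to 74.3%), reaching 2320, and in 0 of 7 without it (0% to 41%), and was at least 5.58-fold higher with Sox2. The bound divides the geometric mean of the cells with Sox2 by 50. Sox9, a SoxE factor of radial glia, passed it in 10 of 21 and 0 of 7 and was at least 2.28-fold higher. Over the 21 settings described at the end, the difference ranged from 0.0 to 3.57 for Sox3 and from 0.565 to 2.55 for Sox9. For Sox3, the 0.0 means that the cells with Sox2 compared in that setting were at the floor too. Of the 6974 genes, 191 (2.74%) passed 50 in none of the 7 cells, and each of these could enter only through the group with Sox2. Sox1, the third SoxB1 gene, passed 50 in 14 of 21 and 3 of 7 cells (difference 1.62), and Sox21, a SoxB2 repressor, in 15 and 2 (1.35), and both differences turned within title letter C. The SoxC factors of neuronal differentiation went the other way: Sox11 read 2740 to 4942 in the 7 cells and from the floor to 4081 in the 21 (difference −1.15), and Sox4 differed by −0.52.

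Among Notch receptor genes, Notch2 and Notch3 were at the floor in all 7 cells without Sox2, and Notch1 was not. Notch2 passed 50 in 13 of 21 cells with Sox2, reaching 4459, and in none without it, and was at least 5.17-fold higher. Notch3 passed it in 9 of 21 and 0 of 7 and was at least 2.41-fold higher. Both are among the 191 genes (2.74%) above 50 in none of the 7 cells. Such genes could pass the filter only through the group with Sox2. Notch1 passed 50 in 17 of 21 and 6 of 7 cells, at 8.99 ± 1.97 and 8.25 ± 1.91. Over the 21 settings described at the end, the difference ranged from 0.0 to 4.38 for Notch2 and from 0.0 to 2.71 for Notch3. A difference of 0.0 means that the cells with Sox2 compared in that setting were at the floor too. A floor reading was thus not particular to the cells without Sox2. The ligand gene Dll1 was higher by 1.27 and Dll3, a ligand-like inhibitor, differed by −1.20. Numbl, which encodes a Notch antagonist, passed 50 in 12 of 21 and 7 of 7 cells and differed by −1.57. The effector genes Hes1 and Hes5 were scarce in both groups, in 2 and 7 of 21 cells with Sox2 and 0 and 1 of 7 without. The median over 16 Notch pathway genes was 0.32, and it was 0.068 in title letter B, 1.38 in X and −0.18 in C.

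FGF response genes lay above the median of all genes. All 6 that passed the filter differed by a value above 0, 4 of them by 1 log2 unit or more, and the list's median was 1.38. Of all 6974 genes, 3630 lay above 0 and 10.8% were higher by 1 log2 unit or more. The list's median was 1.55 in title letter B, 3.04 in X and 0.017 in C (letters are described further on). Etv5, an ETS factor induced by FGF, passed 50 in 18 of 21 and 3 of 7 cells and was higher by 2.33, and the receptor gene Fgfr3 passed it in 18 and 2 and was higher by 1.87. The difference of Etv5 turned within title letter C, to −1.22. Jun, of the immediate early list, passed 50 in 9 of 21 and 0 of 7 and was at least 3.88-fold higher. It is another of the 191 genes (2.74%) that could pass the filter only through the group with Sox2. The other lists lay within 0.6 of 0, at 0.37 for the Wnt pathway, 0.09 for apical junction and polarity, −0.17 for delamination, −0.21 for cortical identity, −0.59 for migration, −0.22 for immediate early and −0.10 for housekeeping genes. The p53 response list had only 3 genes that passed, of which 1 differed by a value above 0 and 2 by one below it. Those 2 were Trp53inp1 (−2.21) and Sesn1, a stress-induced regulator of growth (−1.48). Over the 21 settings described at the end, their highest differences were −0.097 and 0.088.

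Most genes of the intermediate progenitor programme had a lower mean with Sox2. Of 19 that passed the filter, 15 differed by a value below 0 and 4 by one above it. By at least 1 log2 unit, 9 were lower with Sox2 and 1 was higher, against 8.6% and 10.8% of all genes, and the list's median was −0.84. Neurog2, the proneural factor that acts upstream of Eomes, read 2939 to 5432 in all 7 cells without Sox2 and from the floor to 5664 in the 21 with it, a difference of −1.13. Insm1, a zinc finger factor needed to form intermediate progenitors, passed 50 in 7 of 7 and 20 of 21 cells, at 10.99 ± 0.72 and 10.62 ± 1.48. Gadd45g and the antiproliferative gene Btg2 passed it in 7 of 7 cells, against 17 and 16 of 21. Rnd2, a small GTPase that Neurog2 induces for migration, read 3176 to 6615 without Sox2 and from the floor to 8069 with it, a difference of −2.69. Neurod1, the bHLH factor that follows Eomes, passed 50 in 6 of 7 cells (85.7%, 42.1% to 99.6%) against 8 of 21 (38.1%, 18.1% to 61.6%) and differed by −2.04. The difference of Neurod1 turned within title letter C, to 0.82.

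The genes lowest with Sox2 differed among themselves in how often the cells without Eomes held them. The chemokine gene Cxcl12, made by intermediate progenitors to guide interneurons and other migrating cells, read 137 to 4096 in all 7 cells without Sox2 and passed 50 in 6 of 21 with it, where it reached 3241, a difference of −3.12. It passed 50 in 0 of 28 cells with Sox2 without Eomes and in 2 of 10 with neither. The difference of Cxcl12 turned within title letter C, to 0.23. Serping1, the inhibitor of complement C1, passed it in 7 of 7, 10 of 21, 1 of 28 and 1 of 10 cells of these 4 groups, and Gcg, the glucagon precursor gene, in 6, 4, 0 and 1. These counts were highest in the Eomes cells without Sox2 and low in both groups without Eomes.

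Others of these genes were also frequent in cells with neither gene. Kif21b, a neuronal kinesin, read 1298 to 4468 in the 7 cells and passed 50 in 13 of the 21, a difference of −3.08. It passed 50 in 3 of 28 cells with Sox2 without Eomes and 10 of 10 with neither. Nrn1, the neurite growth factor neuritin, passed it in 7 of 7, 10 of 21, 0 of 28 and 7 of 10 cells and differed by −2.87, and Carmil3, a regulator of actin capping, in 7, 13, 9 and 10 and differed by −2.48. Within title letter C the differences of Nrn1 and Carmil3 turned, to 1.19 and 0.28. Grina differed by −2.92 and passed 50 in 17 of 28 and 9 of 10 cells without Eomes. The remaining 4 are given with their counts in the cells without Eomes. Pcyox1, a lysosomal enzyme, differed by −3.0 and passed 50 in 19 of 28 and 7 of 10 cells without Eomes. Lrrn3, a leucine-rich repeat neuronal protein, differed by −2.70 and passed it in 6 and 3, Pxylp1, a xylose phosphatase, by −2.67 in 4 and 2, and G630016G05Rik by −2.71 in 11 and 0.

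**Figure D4:**
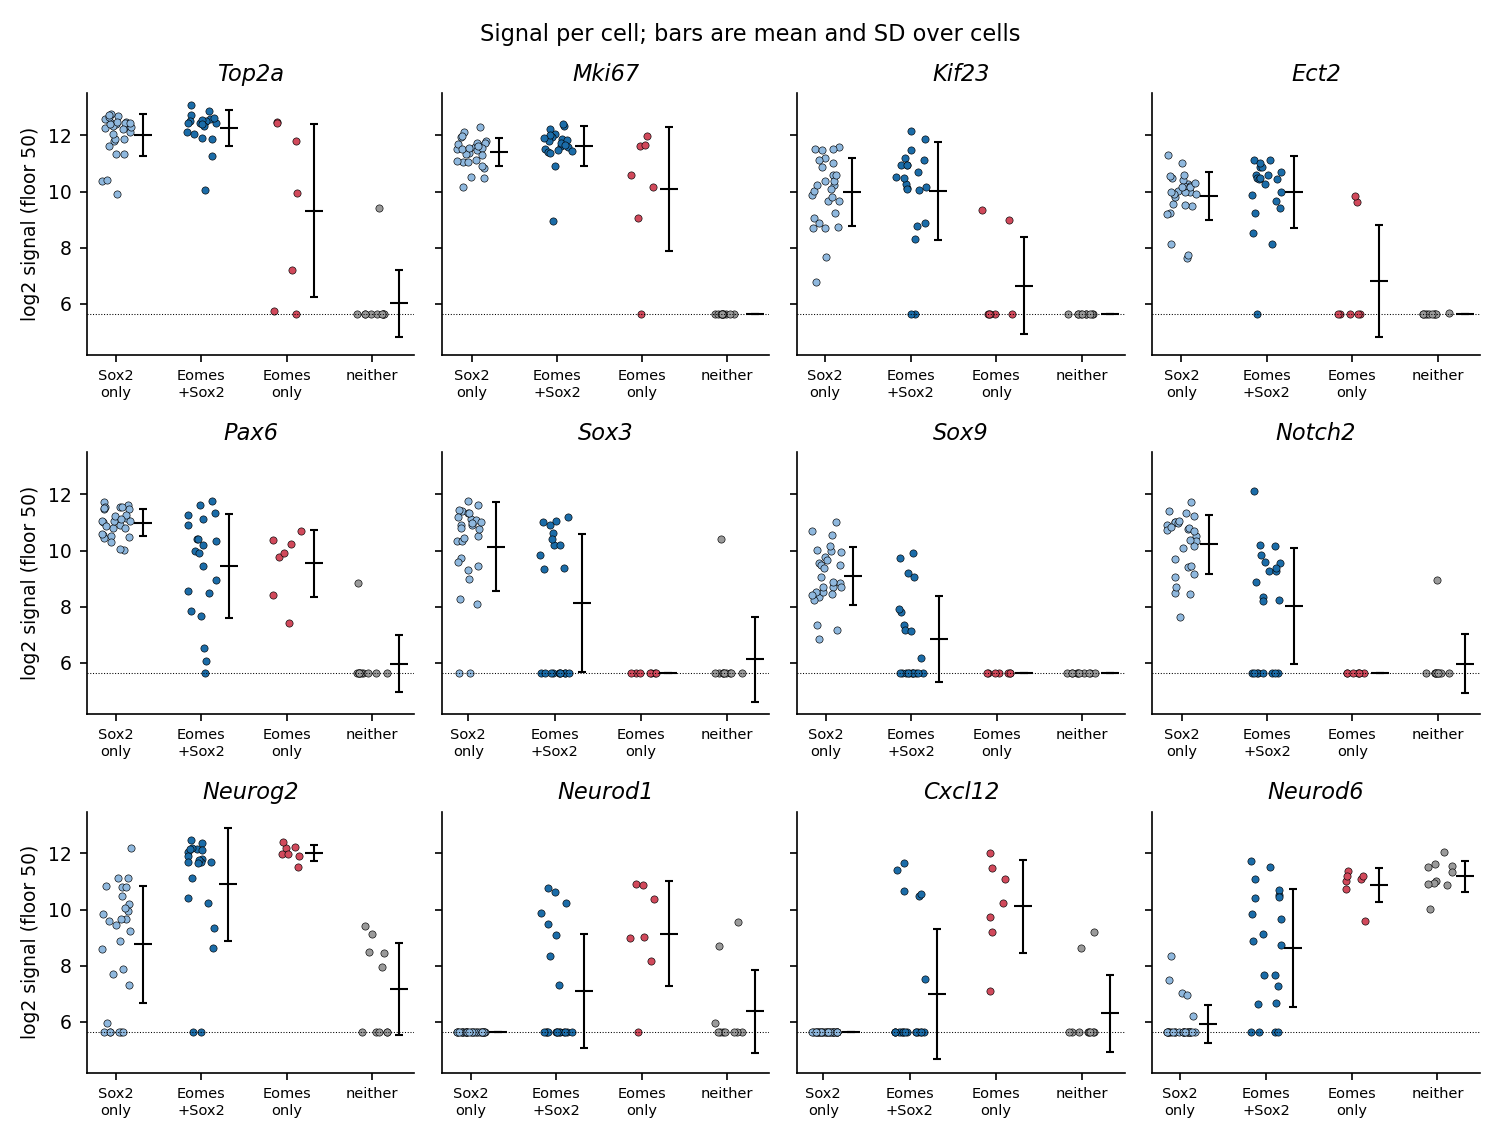
Log2 signal of 12 genes in each of 66 VZ/SVZ cells of 4 groups, from cells with Sox2 only (n = 28) through Eomes and Sox2 (n = 21) and Eomes only (n = 7) to neither (n = 10). Points are cells, bars the mean and SD over cells, and the dotted line the floor at 50. Sox3, Sox9 and Notch2 lie at the floor in all 7 Eomes cells without Sox2, where Pax6 and Neurog2 do not.

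Genes of neurons were more frequent without Sox2, but not within title letter C, where the list's median difference was 0.08. In each of the 7 cells without Sox2, fewer of them passed 50 than in cells with neither gene. Of 20 neuron genes that passed the filter, 11 were lower with Sox2 by at least 1 log2 unit and 1 was higher, against 8.6% and 10.8% of all genes, and the list's median was −1.23. Neurod6, a bHLH factor of young pyramidal neurons, read 778 to 2658 in the 7 cells and from the floor to 3396 in the 21, a difference of −2.26. Tbr1, the T-box factor that follows Eomes in the neuronal lineage, passed 50 in 6 of 7 and 6 of 21 cells (difference −1.58, but 0.044 within title letter C). The microtubule genes Dcx and Tubb3 passed it in 7 and 6 of 7 cells and in 17 and 11 of 21 (differences −1.78 and −1.71), and Snap25, of synaptic vesicle fusion, in 6 of 7 and 7 of 21 (−1.91), and all 3 turned within title letter C. Stmn2, a growth cone protein of postmitotic neurons, passed it in 0 of 7 and 1 of 21 Eomes cells but in 10 of 10 cells with neither gene. Per cell, 13 to 19 of the 29 neuron genes passed 50 without Sox2 (median 16), 5 to 20 with it (median 11) and 21 to 26 in cells with neither gene.

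The 7 cells without Sox2 were not uniform in cell cycle genes. All 24 G2/M genes passed 50 in the cell C-20P, 23 in C-14K and X-10E, 14 in B-14L and X-3i, 7 in B-9H and 1 in C-23J. Among the Eomes cells with Sox2, 20 of 21 had at least 19 of the 24 genes, as C-20P, C-14K and X-10E did, and the remaining cell had 5. The cell C-23J was at the floor for Top2a and Mki67, and it read 1403 for Eomes and 172 for Pax6. X-10E, which is the cell at 47.8 for Sox2, had 23 G2/M genes yet lay at the floor for Kif23, Ect2 and Ckap2. These 3 RNAs passed 50 together in 2 of 7 cells without Sox2, C-14K and C-20P, and in 19 of 21 with it.

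The intermediate progenitor and neuron genes were more even across the same 7 cells. Between 13 and 17 of the 22 intermediate progenitor genes passed 50 in each, as against 3 to 16 in cells with Sox2, 3 to 9 in cells with Sox2 without Eomes and 7 to 14 in cells with neither. Apical progenitor genes numbered 10 to 18 of 30 in the 7 cells (median 12), 8 to 27 in the 21 (median 17) and 22 to 28 in the cells with Sox2 without Eomes. The range of the 21 cells thus covers that of the 7 and overlaps that of the cells with Sox2 without Eomes.

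**Figure D5:**
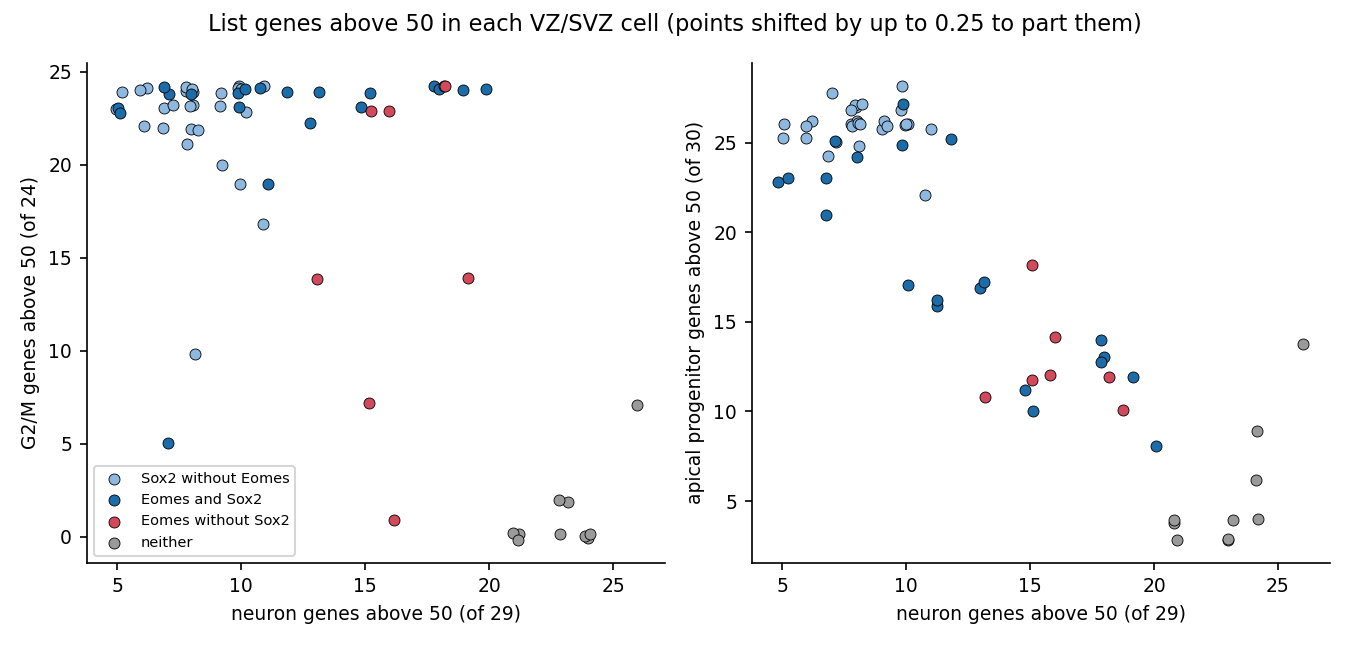
Number of G2/M genes (left, of 24) and apical progenitor genes (right, of 30) above 50 against the number of neuron genes above 50 (of 29), with 1 point for each of 66 VZ/SVZ cells, coloured by group. The 7 Eomes cells without Sox2 spread from 1 to 24 G2/M genes at 13 to 19 neuron genes, while the 10 cells with neither gene hold 21 to 26 neuron genes.

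The title of each cell carries a letter whose meaning the labels do not give, and the Eomes cells fall under B (11 with and 2 without Sox2), C (4 and 3) and X (6 and 2). Within each letter the G2/M median stayed above 0, at 3.39 for B, 1.74 for C and 1.73 for X, and it was 2.23 with the letter as a term in a linear fit. In letter X its absolute size was smaller than that of the apical progenitor, FGF response, neuron and Sox family medians. These medians rest on 2 or 3 cells without Sox2 per letter. In C, C-14K and C-20P had 23 and 24 G2/M genes, within the 23 to 24 of the C cells with Sox2, and C-23J had 1. In X, X-10E had 23 and X-3i had 14, against 23 to 24 with Sox2. The apical progenitor median was 0.96 for B and 3.07 for X but −0.53 for C, and the neuron median was −1.28 and −2.22 but 0.08 for C. With the letter as a term these medians were 0.88 and −1.08. The cells of letter C with Sox2 held 10 to 13 apical progenitor genes and 15 to 18 neuron genes, close to the 3 without it, at 12 to 18 and 15 to 18, while the letter X cells with Sox2 held up to 27 apical genes. Intermediate progenitor medians were −0.34 for B, −0.45 for C and −1.54 for X. Cxcl12, Neurod1 and Nrn1 also turned within letter C, to 0.23, 0.82 and 1.19, as did Carmil3 (0.28), Etv5 (−1.22) and Id4 (−0.46). Further genes described above did so too: Sox1 (−1.89), Sox21 (−1.08), Sox4 (0.27), Notch1 (−1.86), Dll1 (−1.08), Vim (−1.44), Fabp7 (−1.14), Mcm3 (−1.52), Ccnd2 (0.33), Dcx (0.78), Tubb3 (1.94), Snap25 (0.63) and Tbr1 (0.044).

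The same split among the VZ/SVZ cells without Eomes gave larger differences in most of these lists. There 475 genes (6.81%) were higher with Sox2 by at least 2 log2 units and 216 (3.1%) lower, over the same 6974 genes. The G2/M median was 4.61, the apical progenitor median 4.02 and the neuron median −3.30, against 2.02, 1.09 and −1.23 among Eomes cells, and the difference between the splits was not tested. Pax6 differed by 5.03 there, passing 50 in 28 of 28 and 1 of 10 cells, and Ccnd2 by 4.82, in 28 of 28 and 2 of 10. In the Eomes cells these genes differed by −0.10 and −0.42. The cells without Eomes and without Sox2 were of letter D (7) and X (3), and those with Sox2 of letters X (20), A (7) and B (1), so group and letter cannot be told apart there outside letter X.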

How the data were processed

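The deposited values are probe set intensities that the authors made with MAS5 (the submitters' processing notes name no version). How arrays were scaled to each other is not stated here. Of 45101 probe sets, 34958 had 1 gene in the platform annotation. Where a gene had several, the brightest by mean log2 over the 69 cells stood for it, which left 18194 genes. Values under 50 were set to 50 before log2. Differences of group means were computed with Python 3.11.15, numpy 2.4.6 and pandas 2.3.3, and intervals with scipy 1.17.1, on genes above 50 in at least 25% of Eomes cells. The difference of means was tested on simulated data with known shifts.

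The members and gene lists were chosen with earlier results of these data known. A probe set of its own was found for 335 of the 350 listed genes, and 15 were not analysed here. The text names the 12 genes with the largest difference in either direction (above 50 in at least 50% of the cells of the higher group), a set of genes always named, and up to 4 per list. Dll3 is outside that rule and was picked after its values were seen. Alternatives varied the floor, normalization, probe sets, thresholds, title letters and cells. No doublet caller was run.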

Additional observations from a re-analysis of the deposited data

Results flagged for a closer look

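Among the 7 Eomes cells without Sox2, 1 cell stood apart from the other 6 in 6 of 43 measures examined with Dixon's criterion. It was not the same cell each time. Chance alone meets the criterion in about 1 of 20 only for values without a floor, so the count of 6 cannot be set against that rate. Means of lists are over the genes that passed the filter, 25 of 30 apical progenitor, 20 of 29 neuron and 4 of 13 immediate early and stress genes. The mean log2 signal of the apical progenitor genes was 8.55 in the cell C-14K and 7.69 in the next. That of the neuron genes was 9.99 in the cell X-3i, with 8.87 next, and that of the immediate early and stress genes was 8.81 in the same cell, with 6.98 next. For single genes, Trip13 read 9.23 in C-20P and Nup54 8.39 in C-14K, with the 6 other cells at the floor, and Cenpq read 9.10 in X-10E with 6.23 next. A gene above the floor in 1 cell only always meets the criterion, so Trip13 and Nup54 met it by construction.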

How the results depend on the processing

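The counts of genes that differed by 2 log2 units depended on the floor: 563 higher and 324 lower at the TrpnX floor of 6.26, 203 and 126 at a floor of 25, and 27 and 16 at 100, against 86 and 52. Averaging a gene's probe sets gave 33 and 24. There were 484 and 666 in title letter X alone, 608 and 426 in B, 297 and 228 in C, 130 higher without X, and 754 and 600 at 1 log2 unit. Leaving out 1 cell without Sox2 gave 70 to 135 higher and 52 to 76 lower. The settings for letters B and C were chosen after seeing the data. Over all settings the G2/M median ranged from 1.30 to 3.39. Within letter X the medians were 3.07 for apical progenitor, −2.22 for neuron, 1.38 for Notch and 1.96 for Sox family genes, and S phase genes stood at 1.44 in B. Within letter C, apical progenitor genes turned to −0.53, neuron genes to 0.081 and Notch genes to −0.18, as did Carmil3 (0.28), Cxcl12 (0.23), Etv5 (−1.22), Id4 (−0.46), Neurod1 (0.82) and Nrn1 (1.19). Outside letter C, the differences of Pax6, Insm1, Btg2, Notch1, Vim, Ccnd2, Ccnd3 and Sesn1 changed sign in 1 or more settings. Over all settings the lowest differences of Sox3, Notch2 and Notch3 were 0.0, where the cells compared were at the floor in both groups. The cause of the changes between settings was not tested. Letters X and C also moved the FGF response (3.04 and 0.017) and migration medians (−1.39 and 1.06). Leaving out 1 cell gave −0.03 to 0.43 for S phase genes. Of the 24 genes with the largest differences, 21 kept 1 sign in all 21 settings, and of all 134 genes the naming rule chose, 50 did. The 24 were chosen by size in these same cells, which most settings reuse. The 134 include markers at the floor in all 28 Eomes cells, which have no sign to keep. Neither count therefore measures how well the differences would hold in other cells. No paired analysis was possible because the labels number no cells across groups. The number of arrays limits the precision.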
